A study of Mus musculus with 2 samples.

Results

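The genes described here encode CTCF and the subunits and regulators of cohesin. They are the rows of a deposited table of gene activity whose symbol is Ctcf, Rad21, Smc1a, Smc3, Stag1, Stag2, Nipbl, Wapal, Pds5a or Pds5b, with all RefSeq entries of each. The table lists 9 of these symbols as written and Wapal under the symbol Wapl, for which RefSeq gives Wapal as a synonym. Together they have 12 of the 24165 RefSeq entries and 10 of the 20128 gene symbols. The study measured transcription by global run-on sequencing (GRO-seq) in C2C12, an established line of mouse myoblasts, which are precursor cells that can fuse into muscle fibres. In GRO-seq, isolated nuclei resume transcription with a brominated nucleotide, and the labelled RNA is captured and sequenced, so each read marks a polymerase that was engaged on the gene. Both libraries came from untreated cells at 80% confluency, from 4 plates per nuclei isolation, and the authors pooled them before computing a single activity per entry. Activity is given in RPKmM, sense-strand reads in each kilobase of mappable gene body per 1000000 reads (RPM per kilobase), where the body runs from 1 kb past the transcription start site (TSS) to the transcript end.

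CTCF is a zinc finger protein that binds DNA at insulators and at the borders of chromatin domains. Cohesin is a ring of Smc1a, Smc3 and the kleisin Rad21, to which either Stag1 or Stag2 binds. Nipbl loads the ring onto chromatin and drives the extrusion of loops, Wapal opens it for release, and Pds5a and Pds5b bind the ring and take part in its maintenance and its release. Loops grow until cohesin meets bound CTCF, and in dividing cells the ring also holds sister chromatids together until anaphase.

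The 10 genes were all transcribed in the myoblasts, at levels that spanned 10.7-fold. The highest activity was that of Smc1a, at 12.74 RPKmM, and the lowest that of Pds5b, at 1.19. An entry is marked active in the table where its read density exceeded that of gene deserts by a Poisson test, after control of the false discovery rate. This was so for 12 of the 12 entries, against 70.2% of all entries. By gene symbol, 10 of 10 were active, against 68.7% of all symbols with at least 1 active entry. The median over the 10 genes was 3.36 RPKmM, 3.91 times the median of 0.860 over all 13822 active symbols, where a symbol with several active entries takes their median. Each of the 10 lay above that median, and 7 lay above the upper quartile of 1.96. When inactive entries were counted at 0, the ratio to the median of all symbols was 12.9. Each activity is a single pooled value, which leaves no spread between libraries to give or to test, and the depth of the libraries is not in the table. In a bulk culture, a lower activity in every cell and activity in fewer cells cannot be told apart.

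**Figure D1:**
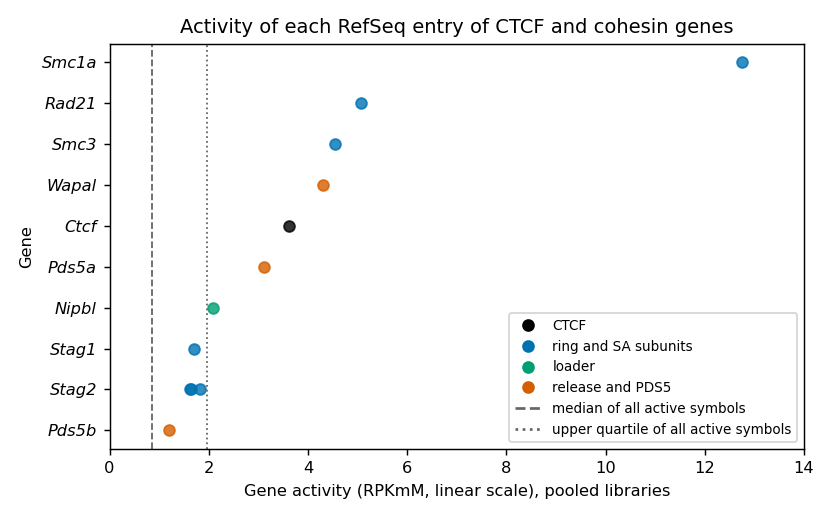
Gene activity in RPKmM (linear axis) of each of the 12 RefSeq entries, by gene; each point is the deposited value of the pooled libraries, colours give the role of the protein, and the lines mark the median (0.860) and upper quartile (1.96) of all active symbols. Smc1a stands at 12.74, the other genes lie between 1.19 and 5.06, and every entry is to the right of the median line.

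Among the subunits of the ring, Smc1a was the most active, and Smc3 and Rad21 were close to each other. Smc1a (NM_019710), a coiled-coil ATPase of the ring, had 12.74 RPKmM, above 97.9% of the other active symbols. It lies on the plus strand of chromosome X of mm9 from 148450971 to 148497237. Its partner ATPase Smc3 (NM_007790), on the plus strand of chromosome 19 from 53674886 to 53720323, had 4.55 RPKmM, above 91.5% of the others. Rad21 (NM_009009), the subunit that closes the ring and is cleaved by separase at anaphase, had 5.06 RPKmM, above 92.6%. It occupies 51794151 to 51823306 of chromosome 15, minus strand. The activity of Smc1a was thus 2.52 times that of Rad21 and 2.80 times that of Smc3, while Rad21 exceeded Smc3 by a factor of 1.11. Smc1a and Smc3 proteins were identical at 25.6% of 1154 aligned residues.

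The genes of the alternative subunits Stag1 and Stag2 were less active than the genes of the ring and differed little from each other. Stag1 (NM_009282), on the plus strand of chromosome 9 from 100498217 to 100858964, had 1.70 RPKmM. Stag2, on the plus strand of chromosome X from 39502494 to 39630362, has 3 entries, with 1.64 (NM_001077712), 1.63 (NM_021465) and 1.83 RPKmM (NM_001290713). The value of Stag1 falls inside the range of the Stag2 entries. The ratio of Stag2 to Stag1 was 0.965 with the median of the Stag2 entries and 1.08 with the highest, so their order depends on the entry used. The sum of both genes, with the Stag2 median, was 3.34 RPKmM, below each of Smc1a, Rad21 and Smc3. The encoded proteins were identical at 896 of 1244 aligned residues (72%).

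The loader gene Nipbl (NM_027707), at 8241225 to 8394463 of chromosome 15, minus strand, had 2.09 RPKmM, above 76.6% of the other active symbols. The release factor gene Wapal (NM_001004436), on the plus strand of chromosome 14 from 35487114 to 35561169, had 4.30, above 90.9%. Its activity was 2.06 times that of Nipbl. Mau2, whose product forms the loading complex with Nipbl, had 0.99 RPKmM. In activity, the paralogues of PDS5 differed more than those of the Stag subunit. Pds5a (NM_001081321), at 66006499 to 66089095 of chromosome 5, minus strand, had 3.11 RPKmM. Pds5b (NM_175310), on the plus strand of the same chromosome from 151476314 to 151613265, had 1.19. The ratio of Pds5a to Pds5b was 2.61, and rounding of the deposited values to 2 decimals allows 2.60 to 2.63. These proteins were identical at 71.0% of 1316 aligned residues.

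Ctcf (NM_181322), on the plus strand of chromosome 8 from 108160468 to 108206822, had 3.62 RPKmM, above 88.2% of the other active symbols. In the order of activity it came after Smc1a, Rad21, Smc3 and Wapal and before Pds5a, Nipbl, Stag1, Stag2 and Pds5b. Only the step from Smc1a to Rad21 was large, at 2.52, and the next was that from Pds5a to Nipbl, at 1.49. The remaining steps between neighbours in this order lay between 1.04 and 1.38. As a guide to how far a value moves with the entry used, 1888 symbols with several active entries of at least 0.1 RPKmM had a median ratio of highest to lowest entry of 1.10, with an upper quartile of 1.36. For Stag2 it was 1.12. The steps from Rad21 to Smc3 (1.11), from Smc3 to Wapal (1.06) and from Stag1 to Stag2 (1.04) are no larger than that of the Stag2 entries. The steps from Pds5a to Nipbl (1.49) and from Stag2 to Pds5b (1.38) exceeded the upper quartile of these ratios but not their 90th percentile of 1.88, which only the step from Smc1a to Rad21 did. The ratios compare entries of the same gene, which can share reads, and give no error for a step between different genes.

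The promoters that were available for these genes were rich in CpG. RefSeq promoter sequences, from 250 bases before to 50 bases after the start, were held for 7 of the 10 genes (Ctcf, Smc1a, Smc3, Stag1, Wapal, Pds5a and Pds5b), in the build GRCm38.p6 and not in mm9; Rad21, Stag2 and Nipbl were not matched. Their GC content had a median of 73.7%, against 52.7% over 32851 promoters, and their number of CpG dinucleotides had a median of 41, against 7. The 32851 promoters were not limited to those of active genes. The promoter of Smc1a, the most active gene, had the lowest GC content (58.3%) and the fewest CpG (23) of the 7, and that of Pds5a the highest, with 80.3% and 55. Smc1a is printed for that reason. The other 4 printed are the promoters that hold the letters AANATGGC on either strand, which include the core bound by the zinc finger factor YY1. These matches are in capitals, as is a match to AGNGGGCGC, part of the motif of CTCF itself, in Pds5b.
Smc1a, chrX:152016178-152016477, plus strand: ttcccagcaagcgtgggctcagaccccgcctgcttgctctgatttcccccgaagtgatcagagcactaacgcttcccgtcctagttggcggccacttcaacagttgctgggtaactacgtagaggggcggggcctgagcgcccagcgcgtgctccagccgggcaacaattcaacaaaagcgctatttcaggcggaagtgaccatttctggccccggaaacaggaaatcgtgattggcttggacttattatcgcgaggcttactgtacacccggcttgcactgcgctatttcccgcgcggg
Smc3, chr19:53600146-53600445, plus strand: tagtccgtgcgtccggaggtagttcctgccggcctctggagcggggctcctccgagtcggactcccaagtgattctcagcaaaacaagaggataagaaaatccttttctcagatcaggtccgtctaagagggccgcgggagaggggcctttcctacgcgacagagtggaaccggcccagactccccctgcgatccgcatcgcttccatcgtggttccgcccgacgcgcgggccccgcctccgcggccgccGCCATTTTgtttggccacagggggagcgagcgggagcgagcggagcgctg
Ctcf, chr8:105636288-105636587, plus strand: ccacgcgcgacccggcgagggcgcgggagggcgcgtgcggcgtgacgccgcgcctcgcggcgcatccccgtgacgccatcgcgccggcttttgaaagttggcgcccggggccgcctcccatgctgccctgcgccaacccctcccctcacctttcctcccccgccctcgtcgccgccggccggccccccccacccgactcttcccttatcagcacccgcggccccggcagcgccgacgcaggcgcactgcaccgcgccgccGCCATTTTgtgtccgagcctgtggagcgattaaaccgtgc
Pds5b, chr5:150673577-150673876, plus strand: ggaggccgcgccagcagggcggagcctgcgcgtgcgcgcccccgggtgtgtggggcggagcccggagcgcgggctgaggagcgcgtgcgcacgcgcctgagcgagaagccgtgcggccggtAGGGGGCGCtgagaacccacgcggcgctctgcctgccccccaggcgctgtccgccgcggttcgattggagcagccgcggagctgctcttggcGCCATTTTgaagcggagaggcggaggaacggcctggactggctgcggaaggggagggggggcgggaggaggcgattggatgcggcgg
Stag1, chr9:100643198-100643497, plus strand: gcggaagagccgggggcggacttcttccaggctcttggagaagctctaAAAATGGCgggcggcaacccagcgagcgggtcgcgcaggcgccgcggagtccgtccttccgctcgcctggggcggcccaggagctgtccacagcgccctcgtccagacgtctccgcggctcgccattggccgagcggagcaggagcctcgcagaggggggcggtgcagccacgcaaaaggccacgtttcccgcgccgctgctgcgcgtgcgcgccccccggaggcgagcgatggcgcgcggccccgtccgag

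The letters AANATGGC occurred in 4 of the 7 promoters, against 6.05% of all 32851 promoters and 8.0% of the 7071 with at least 23 CpG. Counted from the first transcribed base as 0, the match began at 0 in Smc3, at 10 in Ctcf, at −37 in Pds5b and at −202 in Stag1. It lay on the strand opposite to the gene in Smc3, Ctcf and Pds5b and on the gene strand in Stag1. The part of the CTCF motif was found in Pds5b, from −129, and in 2.88% of all promoters and 8.77% of those rich in CpG. The GC box GGGCGG occurred in 7 of 7 promoters, against 35.7% of all and 83.2% of those rich in CpG. The core of the NRF1 motif, GCGCNTGCG, was found in Pds5b, Ctcf, Stag1 and Wapal, and in 6.31% and 18.8% of these promoters. CCAAT occurred in 4 of 7, against 37.4% and 31.2%, and the E-box CAGNTG, which MyoD can bind, in Smc1a alone, against 51.4% and 36.6%. TATAAA was in none of the 7, against 13.6% and 3.39%, and CCGGAAG, bound by ETS factors, was likewise in none, against 8.86% and 19.1%. All motifs were searched on both strands, and in the 7 promoters no match shared a base with a match of another motif. They were chosen after the sequences had been seen, and a match is a description of the letters and not evidence of binding. Promoters with a match to AANATGGC belonged to genes of 4.55 (Smc3), 3.62 (Ctcf), 1.70 (Stag1) and 1.19 RPKmM (Pds5b), and those without to genes of 12.74 (Smc1a), 4.30 (Wapal) and 3.11 (Pds5a), so the activities of these groups overlapped.

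The start of Smc1a lies close to that of another gene. In the mm9 annotation, Ribc1, which encodes a coiled-coil protein, starts 133 bp away and runs in the opposite direction, over 148439125 to 148450838 of chromosome X. Its activity was 0.06 RPKmM, so that of Smc1a was 212 times as high, and rounding allows 196 to 232 times. No other member has an annotated start of another gene within 1 kb of its own. Inside the annotated spans of the 10 genes lie 7 other annotated genes, all of them pseudogenes or genes of small RNAs. Of these, 6 are on the opposite strand, which the deposited sense-strand activity does not count, and the remaining gene is an snRNA of 106 bp in Pds5b. Rad21, Smc3, Stag2, Nipbl and Wapal have no such overlap.

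Activity went with gene length among the members. The 6 genes under 100 kb, Rad21 (29.2 kb), Smc3 (45.4 kb), Smc1a (46.3 kb), Ctcf (46.4 kb), Wapal (74.1 kb) and Pds5a (82.6 kb), had activities from 3.11 to 12.74 RPKmM. The 4 longer genes, Stag2 (128 kb), Pds5b (137 kb), Nipbl (153 kb) and Stag1 (361 kb), had 1.19 to 2.09. These ranges did not overlap, and the median of the shorter genes was 4.42 RPKmM, 2.65 times the median of 1.67 of the longer genes. Over the 10 genes Spearman's rank correlation of activity with length was −0.855, given as a description since these are genes of a single pooled measurement. Over the 12381 active symbols with a length in the annotation (89.6%) it was −0.0331. Among all those symbols the median was 0.930 RPKmM under 100 kb and 0.690 from 100 kb, a ratio of 1.35. The division at 100 kb was made after the values had been seen.

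**Figure D2:**
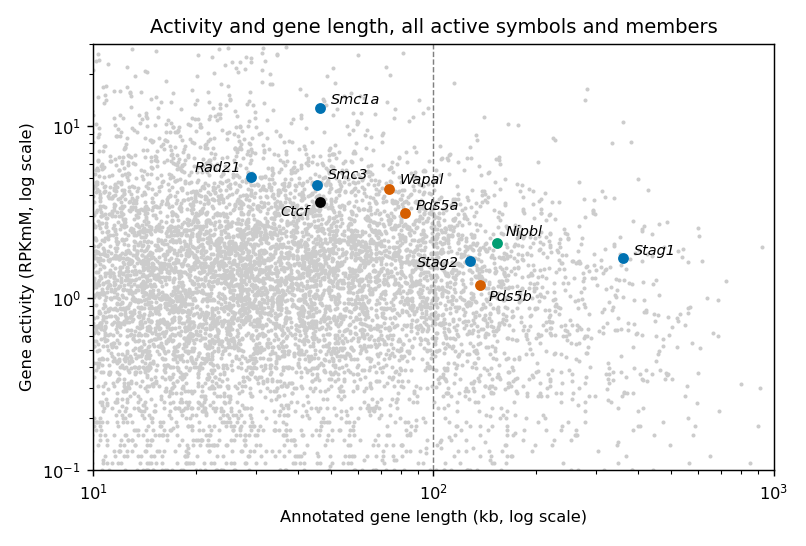
Gene activity in RPKmM against annotated gene length in kb, both on log scales, with active symbols as grey points, members as coloured points with their names, and a dashed line at 100 kb; symbols outside the plotted ranges are not drawn. The 6 members left of the line lie between 3.11 and 12.74 RPKmM and the 4 to its right between 1.19 and 2.09, within the spread of the grey points.

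Against genes of like length, the longer members were still in the upper part. The 1643 active symbols of at least 100 kb had a median of 0.690 RPKmM and an upper quartile of 1.55. Stag1 was above 77.9% of the others of that length, Stag2 above 76.9%, Nipbl above 84.8% and Pds5b above 66.3%, and only Pds5b was below the upper quartile. Among the 8941 symbols under 50 kb, with an upper quartile of 2.14, Smc1a was above 97.3%, Rad21 above 90.9%, Smc3 above 89.6% and Ctcf above 85.9%. Wapal and Pds5a were above 92.8% and 86.9% of the 1797 symbols from 50 to 100 kb.

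The longer genes shared a long first intron, a feature looked at after the activities were known. In the transcript with the longest coding sequence, the first intron was 70.0 kb in Nipbl, 61.4 kb in Stag1, 52.2 kb in Stag2 and 42.4 kb in Pds5b. It was 8.84 kb in Rad21, 6.79 kb in Ctcf, 6.11 kb in Smc1a, 2.59 kb in Wapal, 0.928 kb in Smc3 and 0.812 kb in Pds5a. As a share of the transcript span, it ran from 19.5% (Stag1) to 45.7% (Nipbl) in the longer genes. In the shorter genes it ran from 0.983% (Pds5a) to 30.3% (Rad21), so these shares overlapped. First introns of other long genes were not compared. Exons made up from 1.96% of the transcript span in Stag1 to 12.4% in Rad21, so most of each gene body over which the activity was averaged is intron. The number of exons ran from 12 in Ctcf to 47 in Nipbl.

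**Figure D3:**
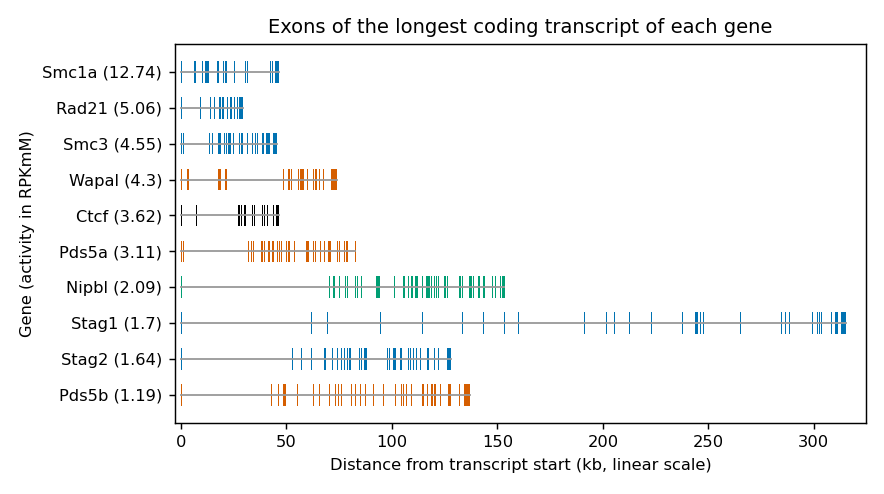
Exons (blocks) and introns (lines) of the transcript with the longest coding sequence of each gene, by distance from its start in kb on a linear axis, with the activity in RPKmM beside the name and genes in order of activity; exons under 0.5 kb are drawn 0.5 kb wide. The first intron reaches 42.4 to 70.0 kb in Stag1, Stag2, Nipbl and Pds5b and at most 8.84 kb in the other genes.

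Activity is a density, so the reads over a whole gene body also depend on its length. The product of activity and gene body length, in RPM if every base is mappable and the annotated span applies, was 612 for Stag1 and 577 for Smc1a, above those of the other genes. It was 318 for Nipbl, 314 for Wapal, 254 for Pds5a, 208 for Stag2, 202 for Smc3, 164 for Ctcf, 162 for Pds5b and 142 for Rad21. These totals spanned 4.29-fold, against 10.7-fold for the density and 12.4-fold for the length. The order also differed, as Rad21 is second by density and last by total, and Stag1 moved from eighth by density to the top of the totals beside Smc1a. Which of these 2 comes first depends on the length used. With the span of the transcript with the longest coding sequence (315 kb for Stag1), the total of Stag1 was 534 RPM, below the 577 of Smc1a. By total over the annotated spans, Stag1 and Stag2 (612 and 208) were further apart than Pds5a and Pds5b (254 and 162), the reverse of the densities.

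**Figure D4:**
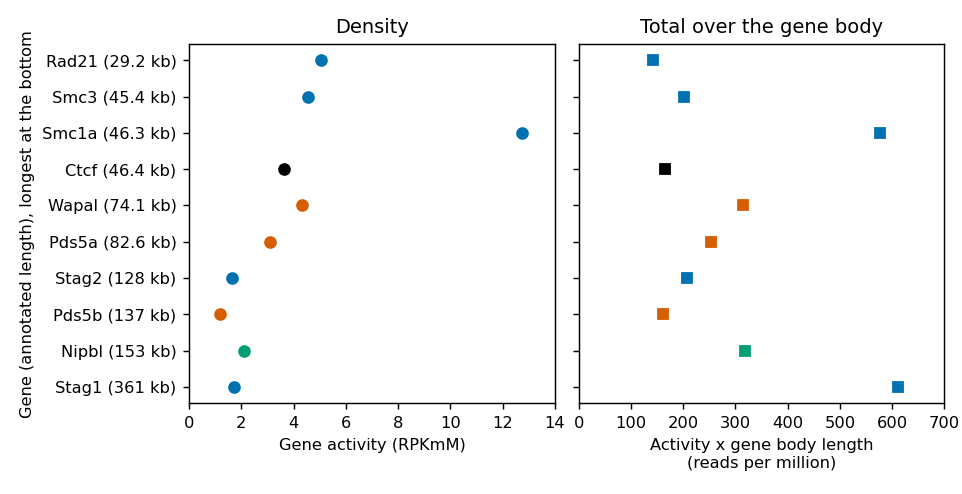
Activity in RPKmM (left, linear axis) and the product of activity and gene body length in RPM (right, linear axis) for the 10 genes, with the longest gene at the bottom. On the left Smc1a stands at 12.74 and the 4 longest genes are at 2.09 or below, while on the right Stag1 (612) and Smc1a (577) stand apart from the others, which lie between 142 and 318.

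The germline counterparts of these genes were inactive. Stag3, Rec8, Smc1b and Rad21l, which replace somatic subunits in meiotic cohesin, and Ctcfl, the testis paralogue of Ctcf, were each marked Inactive in their entries, 5 of 5. Over the whole table, 68.7% of gene symbols had an active entry. In the other genes that load, acetylate, protect or cleave cohesin, or establish cohesion at the replication fork, 15 of the 16 in the table were active, with a median of 1.70 RPKmM and a range from 0.68 (Dscc1) to 3.35 (Wdhd1). Of these, 12 were above the median of all active symbols and 4 above the upper quartile. The acetyltransferase genes Esco1 and Esco2 had 1.89 and 1.11 RPKmM. The deacetylase gene Hdac8 had 0.81 and 0.64 in its entries, and Cdca5, which encodes sororin, had 2.1. The shugoshin gene Sgol1 had 1.81, the separase gene Espl1 2.73 and the securin gene Pttg1 1.74 and 1.67. Sgol2b was the inactive gene of this list. All activities of this list were below those of Smc1a, Rad21, Smc3, Wapal and Ctcf.

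Condensin and the complex of Smc5 and Smc6 are built on related ATPases. Their genes, with the related Smchd1, were active in 14 of 14, against 68.7% of all symbols. The median of these genes was 2.89 RPKmM, against 3.36 for the CTCF and cohesin genes. They ran from 0.47 (Nsmce4a) to 11.81 RPKmM (Ncapd2), a 25.1-fold range against 10.7-fold, and 12 were above the median of all active symbols. The condensin ATPase genes Smc4 and Smc2 had 11.19 and 2.9 RPKmM, so as in cohesin the genes of the paired ATPases were unequal. Smc5 had 3.18 and 3.31 in its entries and Smc6 2.18. Of the 39 active genes of these lists and of the CTCF partners listed in the closing section, 38 had an annotated length, and of those Hdac8 (221 kb), Nsmce2 (227 kb) and Smchd1 (131 kb) reached 100 kb or more, with 0.725, 2.88 and 1.7 RPKmM.

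**Figure D5:**
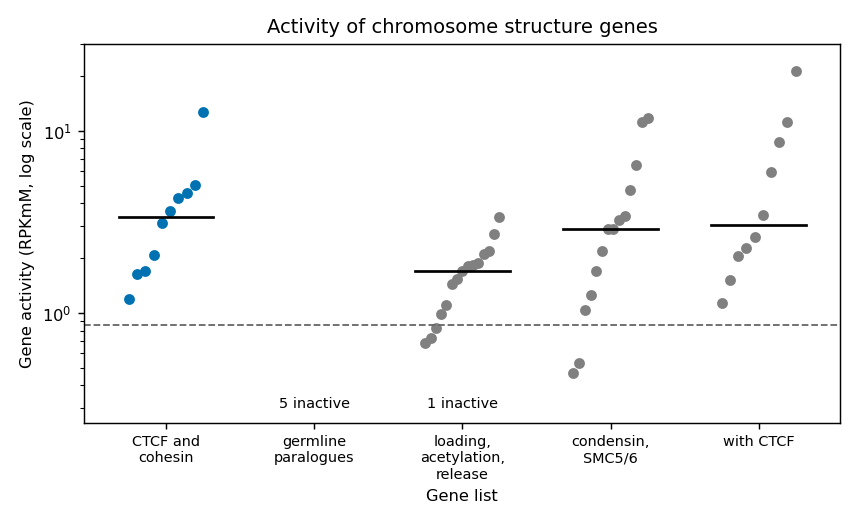
Gene activity in RPKmM (log axis) of the genes of 5 lists, each point an active symbol and each bar the median of a list; the dashed line is the median of all active symbols (0.860), and inactive genes are given as counts. The CTCF and cohesin genes all lie above the line, with a median of 3.36, and none of the 5 germline paralogues was active.

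As a check of the labelled cell type, the genes listed as myoblast markers, Des, Chrna1, Cdh15, Myf5, Myod1 and Msc, were active in 6 of 6, at 72.45, 15.62, 8.08, 5.03, 2.39 and 0.82 RPKmM. Of these, 5 lay above the median of all active symbols (0.860), and Msc lay below it. The markers of differentiated muscle were also active in 6 of 6, with a median of 0.170. Of these, Actn3 (1.88) and Myh1 (1.56) lay above the median of all active symbols, and Ckm had 0.2, Myh4 0.14, Mb 0.13 and Myh2 0.01 RPKmM. Of 12 markers of blood, endothelium, epithelium and neurons in the table, 5 were active, at no more than 0.02 RPKmM. For all these marker counts, the share over the whole table was 68.7% of symbols with an active entry.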

How the data were processed

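GRO-seq was measured in 2 replicate libraries of C2C12 myoblasts. The authors aligned them with Bowtie2 to mm9, with trimming and a further alignment of failed reads. Unique alignments outside rRNA and tRNA repeats were kept, and both libraries were pooled. They deposited gene activity in RPKmM (RPKM over mappable bases), rounded to 2 decimals, or the word Inactive (7208 entries). This unit is taken from the column header and the methods, as a column with words cannot be range-checked. Pooling hides variation between libraries, and unmappable or removed bases leave parts of a gene uncounted. The study gives a read total for both libraries together, but the table gives neither reads nor mappable lengths per entry, and no counting interval was computed.

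Here, a gene took the median of its active entries. Positions, lengths, exons and translated coding sequences came from GENCODE vM1 (mm9), by symbol, with Wapl matched to Wapal. Annotated spans can differ from those of the RefSeq entries, and GRCm38 lengths were 0.984 to 1.15 times these. Proteins were aligned globally with BLOSUM62. Promoters were those of RefSeq, GRCm38.p6. The genes named are the 10 members, the listed gene groups, and genes overlapping a member or starting within 1 kb of its start. Members and lists were chosen with earlier results of these data known. The calculation of the ratio of medians was checked by multiplying the activities of randomly chosen symbols by known factors. That check covers the arithmetic only and is not a test of the observed ratio. Python 3.11.15, pandas 2.3.3, numpy 2.4.6, Biopython 1.88 and matplotlib 3.10.9 were used.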

Additional observations from a re-analysis of the deposited data

How the results depend on the processing

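Libraries were pooled, so no replicate could be left out, and no counting interval was computed. No paired analysis was possible because the table holds a single pooled value per entry. Values count as moved beyond what rounding allows, and counts beyond 1.5 times. All 12 member entries stayed active at a minimum of 0.1 RPKmM, and all 10 genes stayed above the median of all active symbols under each alternative run for that count. The median of the 10 genes, 3.36 RPKmM, was 2.60 over the entries, 3.16 as a geometric mean with either pseudocount, and 3.11 without Wapl or without Smc1a. Its ratio to all active symbols, 3.91, was 3.87 with the highest entry of each symbol, 4.03 with the lowest, 2.99 over entries, 5.31 and 5.76 as geometric means with pseudocounts of 0.01 and 0.001, 3.87 for activities of at least 0.01, 12.9 with inactive entries at 0, 3.66 for NM identifiers only, and 3.62 without Wapl or without Smc1a. The ratio of Stag2 to Stag1, 0.965, was 0.959 with the lowest Stag2 entry and turned to 1.08 with the highest. For the ratios of Pds5a to Pds5b and of Smc3 to Smc1a the choice of entry could change nothing, as each of these genes has a single entry. The ratio of the products of activity and gene body length of Stag1 and Smc1a, 1.06, was 1.08 with GRCm38 lengths and turned to 0.926 with the transcript span. The ratio of shorter to longer genes, 2.65, was 2.57 without Smc1a and 2.72 without Wapl, and did not move with GRCm38 lengths. The alternatives without Wapl or Smc1a, with GRCm38 lengths and with the transcript span were chosen after seeing the data.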

Other observations

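Genes of factors that bind with CTCF or at its sites were active in 10 of 10, against 68.7% of all symbols, with a median of 3.04 RPKmM. The highest was Top2a, a DNA topoisomerase of dividing cells, at 21.3 RPKmM, followed by the zinc finger factor gene Maz at 11.2 and by Top2b, which encodes the paralogue of Top2a found also in resting cells, at 8.65. Ldb1, whose product bridges enhancers and promoters, had 7.18 and 4.74 RPKmM in its entries. The chromatin remodeller gene Chd8 had 3.47, the zinc finger genes Yy1 and Zfp143 had 2.62 and 1.13, and Parp1, a poly(ADP-ribose) polymerase gene, had 2.28. Top2a was more active than every CTCF and cohesin gene, and no gene of this list was as low as the median of all active symbols.

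Among the members, Smc1a and Stag2 are on chromosome X, where 418 active symbols with an annotated position had a median of 0.840 RPKmM, against 0.890 for 11963 on the autosomes. Smc1a was 11th by activity on X and Stag2 123rd, so the X-linked members stood far apart in that order. Neither position was tested, as the values are single.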
